A study of Mus musculus with 64 samples.

Results

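The 36 genes described here belong to antigen presentation and the interferon response and were picked by name from the 23338 genes of the read-count tables, with earlier results of these data known. They comprise 4 class I chain genes, 6 genes of peptide loading and the immunoproteasome, the transactivators Nlrc5 and Ciita, 6 class II genes, 5 interferon transcription factors, 11 interferon-stimulated effectors and the RNA sensors Ifih1 and Ddx58. Symbols are those of the count tables, in which Ddx58 is the gene also known as Rigi.

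RNA-seq was made from 64 samples of C57BL/6 mice (C57BL/6 J in the study's methods), to ask at which stages of development males and females differ in gene expression. They were 12 single eight-cell embryos (6 male and 6 female) from natural matings and 4 litters, 4 lines of ES cells (embryonic stem cells, 2 male and 2 female) grown in 2i medium, which holds the inhibitors PD0325901 at 1 µM and CHIR99021 at 3 µM, 24 livers of late-gestation fetuses (12 male and 12 female) and 24 livers of adults aged 15 to 20 weeks (12 male and 12 female). The labels name no transgene and no drug given to an animal, and the litter of a given embryo or fetus is not given in the sources used here. ES and liver libraries were made from total RNA with one stranded kit, whereas embryo cDNA was amplified by a single-cell protocol, so that stage and protocol cannot be told apart for embryos and their levels are described without a test.

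Levels are given as CPM, reads scaled to the reads on genes of each library and its TMM factor, and are compared within a gene between samples, since CPM is not divided by gene length. Reads on genes numbered 9857929 to 10386931 in ES lines, 4659656 to 7725432 in embryos, 5145371 to 8499603 in the fetal and 1567583 to 4757610 in the adult livers, so 3 reads stood for 0.289 to 1.91 CPM before TMM scaling. Hepatocyte markers (Alb, Ttr, Apoa1, Serpina1a and Cps1) summed to 40020 to 57811 CPM in adult and 18662 to 26296 in fetal livers, and pluripotency markers to 1743 to 1963 in ES lines and 259 to 1058 in embryos, against at most 3.47 in the livers. No pair of libraries of one group agreed within sampling noise. Each liver is a mixture of cells, in which fewer cells of a type and less RNA per cell cannot be told apart.

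Class I molecules, made of a heavy chain such as H2-K1 or H2-D1 and the light chain B2m, sit on nearly every nucleated cell and display peptides cut in the cytosol by the proteasome and carried into the endoplasmic reticulum by Tap1 and Tap2. Class II molecules display peptides from engulfed material and are found mainly on dendritic cells, B cells and macrophages, which in the liver include Kupffer cells. Interferons act through receptors and STAT proteins on response elements in promoters, which switch on antiviral effectors and raise the class I pathway as well.

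Stretches of promoters are shown for members that the results return to, because their classes carried different motifs in front of their starts. Promoter sequence was taken from RefSeq (GRCm38.p6), where 30 of 36 members matched, and the 250 bases before each start were searched on both strands. In the lines that follow, capitals mark GAAA, any 2 bases and GAAA again, or the reverse complement (TTTC, any 2 bases and TTTC), the core of the interferon-stimulated response element, in 7 members with that motif.
Isg15, chr4:156200860-156200899, minus strand: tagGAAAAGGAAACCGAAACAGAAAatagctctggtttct
Gbp3, chr3:142559990-142560029, plus strand: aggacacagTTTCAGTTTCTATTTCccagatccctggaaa
Gbp2, chr3:142620589-142620628, plus strand: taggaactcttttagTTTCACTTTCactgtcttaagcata
Ifit1, chr19:34640785-34640828, plus strand: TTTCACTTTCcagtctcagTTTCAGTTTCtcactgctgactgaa
Ifit3, chr19:34583392-34583431, plus strand: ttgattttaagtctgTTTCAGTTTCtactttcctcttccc
Rsad2, chr12:26456548-26456587, minus strand: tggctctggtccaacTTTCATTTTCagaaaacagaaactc
B2m, chr2:122147533-122147572, plus strand: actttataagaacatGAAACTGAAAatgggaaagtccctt

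For the class II genes H2-Aa and H2-Eb1 the capitals mark CCAAT or its reverse complement, the core of the Y box.
H2-Aa, chr17:34287852-34287886, minus strand: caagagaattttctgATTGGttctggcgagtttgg
H2-Eb1, chr17:34305817-34305851, plus strand: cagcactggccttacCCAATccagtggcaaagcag

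The response element core was present in 10 of 30 members (33.3%) and in 3.46% of 27025 genes, and it lay in 7 of 10 effectors (Ifit1, Ifit3, Isg15, Rsad2, Gbp2, Gbp3 and Bst2), in H2-T23, B2m and Stat2, and in none of the 5 loading and immunoproteasome genes and 4 class II genes that matched. CCAAT lay in all 4 class I genes and all 4 matched class II genes, but in 2 of 10 effectors, beside 53.3% of members and 37.5% of all genes. TTCNNNGAA, the interferon gamma activated site, was found in 5 members (16.7%) and 8.13% of genes. A match describes letters in this window only. The members are not scattered evenly either, since 13 of 36 lie between 33915899 and 36032855 on chromosome 17 (GRCm38), the major histocompatibility complex, and Gbp2 with Gbp3 on chromosome 3 and Ifit1, Ifit2 and Ifit3 on chromosome 19 are neighbours.

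Liver expressed the whole set, and earlier stages only parts of it. At least 3 reads in every library were counted for 34 of 36 members in fetal liver and 34 in adult liver, 17 in ES lines and 8 in eight-cell embryos. No read in any library was counted for 4 members in ES lines (Ifit3, Isg15, Usp18 and Ifi44) and for 12 in embryos (Psmb8, Psmb9, H2-Aa, Ifit1, Ifit2, Ifit3, Usp18, Rsad2, Ifi44, Gbp2, Gbp3 and Ifih1). A count of 0 allows up to 3 reads per library.

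**Figure D1:**
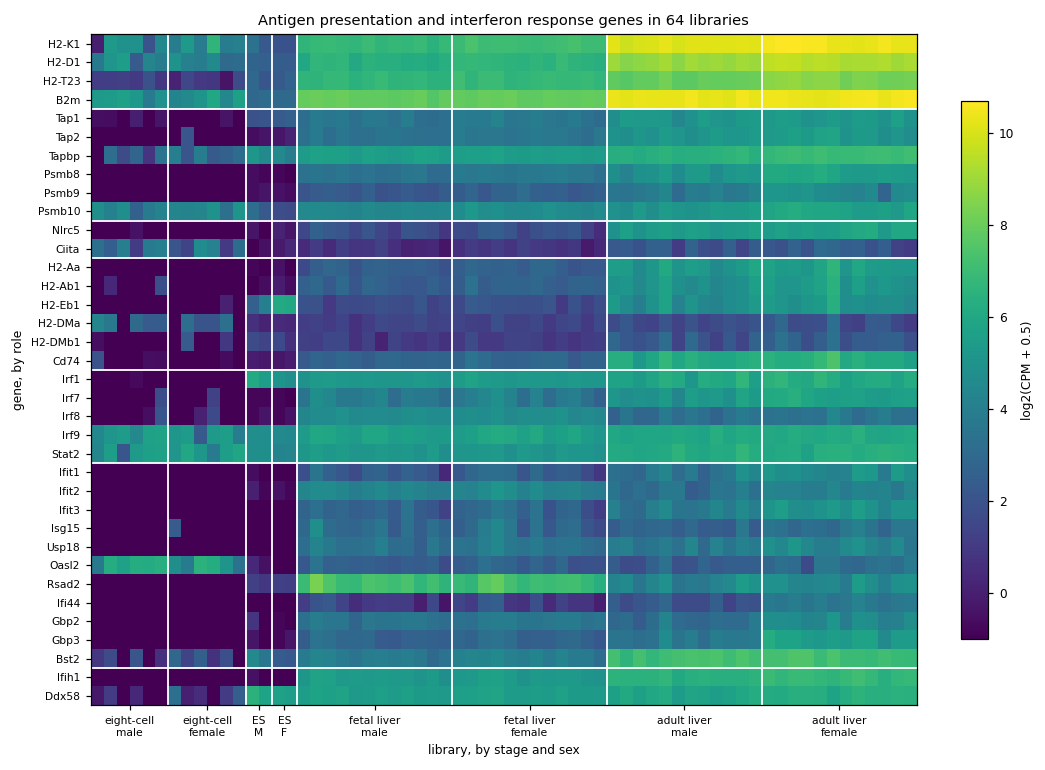
Level of each of the 36 members (rows, by role) in each of the 64 libraries (columns, by stage and sex), as log2 of CPM plus 0.5. Class I genes are present in all 4 stages, whereas 12 members have no read in any embryo and 4 have none in any ES line.

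Adult and fetal liver were compared first, to see how the set changes between late gestation and adulthood. In adult liver 29 of 36 members were higher and 3 lower (Irf8, Ifit2 and Rsad2), by edgeR's quasi-likelihood F test with Benjamini-Hochberg adjustment over all genes, where calls needed adjusted p below 0.1 together with a log2 fold change past 0.5 in size. Of 13026 genes tested, 31.8% were called higher and 35.3% lower, and the median log2 fold change was 1.69 over the members and -0.046 over all genes. The ranges of the stages did not overlap for 16 members that were higher and 1 that was lower (Rsad2), beside 17.8% and 23.5% of all genes. Every class I, loading, transactivator and class II member was called higher, whereas the interferon-stimulated effectors divided into 6 higher, 2 lower and 3 not called. Of the 3, Gbp2 (log2 0.49, adjusted p = 0.00063) and Oasl2 (log2 0.41, adjusted p = 0.0099) missed only the fold threshold. With the share of reads outside genes as a covariate, Gbp2 (0.92) and Oasl2 (0.85) were called higher, and Ifit2 (-0.37) was no longer called.

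All 4 class I chains were higher in adult liver. H2-K1 lay between 89.7 and 160.2 CPM (median 124) in the 24 fetal livers and between 908 and 1677 CPM (median 1221) in the 24 adult livers. The groups were far apart, at 123 ± 16.5 and 1269 ± 201 CPM (SD, n = 24 each), a log2 fold change of 3.43 ± 0.043 (SE, adjusted p = 2.6e-54). B2m, the light chain that every class I molecule needs, went from a fetal range of 191 to 261 CPM to an adult range of 1134 to 1529 CPM (log2 2.55 ± 0.039). H2-D1 was also higher (log2 2.71), and H2-T23, a class Ib heavy chain read by NK cell receptors, rose least of the 4 (log2 1.53). All 4 were among the members whose stages did not overlap.

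All 6 genes of peptide loading and the immunoproteasome were higher too. Tap1 and Tap2, the peptide transporter, were higher by 1.70 and 1.84 on the log2 scale, and Tapbp, which bridges the transporter and the heavy chain, by 1.22. Psmb8 had a median of 11.5 CPM (7.96 to 15.2) in fetal and 39.2 CPM (18.04 to 75.7) in adult livers, which did not overlap (log2 1.97 ± 0.081, adjusted p = 6.9e-30). Psmb9 (log2 2.01) and Psmb10 (log2 1.00), the other immunoproteasome subunits, were called higher with overlapping ranges.

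The transactivators of both classes were called too. Nlrc5, which switches on class I genes, had the largest log2 fold change of all members, from 0.882 to 5.75 CPM (median 3.15) in fetal to 29.9 to 72.7 CPM (median 47.0) in adult livers (log2 3.96 ± 0.12, adjusted p = 5.5e-35). Ciita, the corresponding factor for class II genes, was low at both stages, with medians of 1.18 and 4.56 CPM (log2 1.97 ± 0.17).

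All 6 class II genes were higher in adult liver. Cd74, the invariant chain that guides class II molecules, ranged from 4.30 to 10.6 CPM (median 6.38) in fetal and from 37.1 to 174 CPM (median 75.3) in adult livers (log2 3.64 ± 0.11, adjusted p = 1.4e-35). The peptide-binding chains H2-Aa, H2-Ab1 and H2-Eb1 were higher by 3.15, 2.75 and 3.51 on the log2 scale, and were also among those without overlap. H2-DMa and H2-DMb1, which exchange peptides on class II molecules, were at most 9.15 and 10.1 CPM in any liver and rose by 0.80 and 1.67.

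Interferon transcription factors and effectors did not move as one. Irf7, which amplifies the type I interferon response, was higher in adult liver (log2 1.66), as were Stat2 (log2 1.11) and Irf1 (log2 0.92). Irf9, the partner of Stat2, differed by 0.39 and missed only the fold threshold (adjusted p = 5.6e-07). Irf8, a factor of myeloid and dendritic cell development, was lower in adult liver, with 20.3 to 30.6 CPM (median 25.0) in fetal and 5.69 to 21.7 CPM (median 9.91) in adult livers (log2 -1.24 ± 0.082, adjusted p = 1.2e-20). Only adult female 18 reached the lowest fetal liver.

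Among the effectors, Bst2, a protein that tethers budding virus, had a median of 14.9 CPM (7.72 to 23.9) in fetal and 142 CPM (98.5 to 180.0) in adult livers (log2 3.29 ± 0.086). Rsad2, the antiviral enzyme viperin, went the other way. It lay between 84.2 and 327 CPM (median 135) in fetal and between 10.9 and 44.0 CPM (median 21.7) in adult livers, with no overlap (log2 -2.60 ± 0.15, adjusted p = 1.8e-21). Ifit2 was slightly lower in adult liver (log2 -0.53), although its neighbours Ifit1 (log2 1.98) and Ifit3 (log2 1.87) were higher. The guanylate-binding protein gene Gbp3 (log2 2.06) and Ifi44 (log2 2.01) were higher, Usp18, which removes Isg15 from proteins, was higher by 0.67, and Isg15, the ubiquitin-like modifier, differed by -0.11 with adjusted p = 0.62. Of the RNA sensors, Ifih1 was higher by 1.37 and Ddx58 by 0.61.

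**Figure D2:**
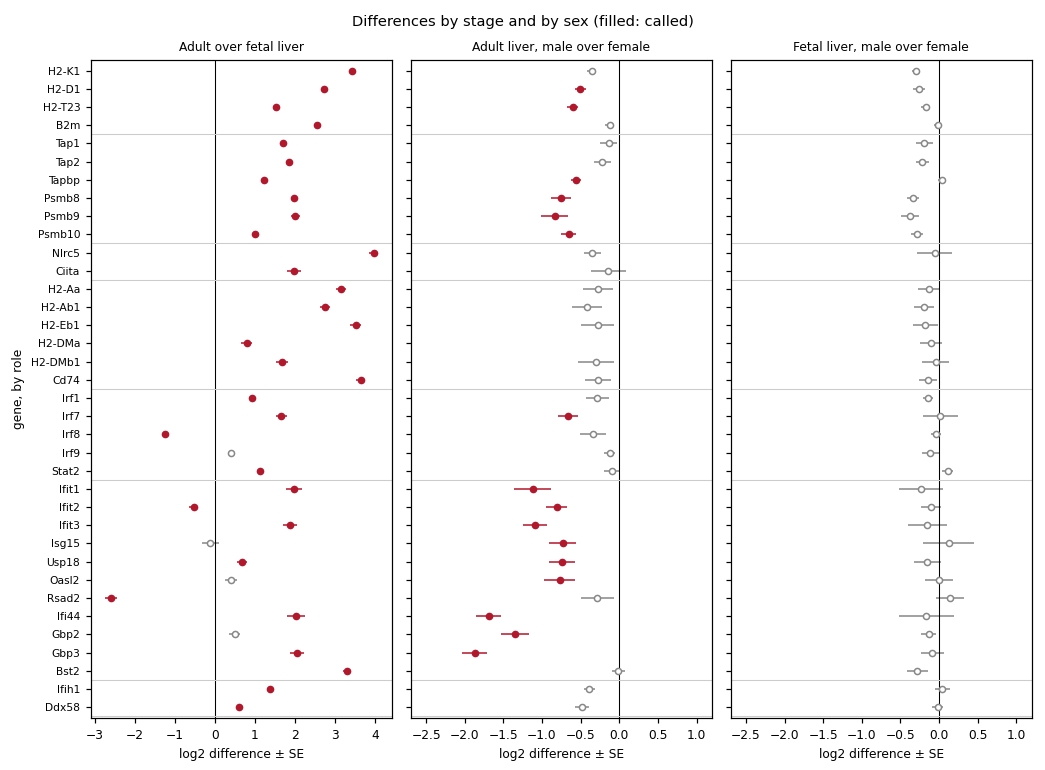
Log2 fold changes of the members with their standard errors, for adult over fetal liver and for male over female livers within each stage; filled points passed both thresholds. The adult over fetal values run from -2.60 for Rsad2 to 3.96 for Nlrc5, and the called male over female values in adult liver are all negative.

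Lists of other genes of the same pathways, chosen with earlier results known, gave mixed counts for adult over fetal liver. Of 17 further class I pathway genes tested, 11 were higher and 1 lower, led by the class Ib and class I genes H2-T10 (log2 3.32), H2-Q10 (2.83), a secreted class I molecule of liver, and H2-Q1 (2.70). Of 7 further class II pathway genes, 1 was higher (Ctsl, a lysosomal protease, 1.12) and 3 were lower, among them Ifi30, a lysosomal thiol reductase (-1.32), and March1, a ubiquitin ligase that removes class II molecules from the surface (-0.92). Of 30 other interferon-stimulated genes, 18 were higher and 1 lower, led by Oasl1 (3.65), Iigp1 (3.16) and Ifitm3 (2.74). Receptors and signalling genes gave 4 higher and 4 lower of 14, with Il28ra, a chain of the type III interferon receptor, lowest (-5.39), then Il10rb, its partner chain (-1.46), and Irf2 (1.30). Sensors and adaptors gave 6 higher and 2 lower of 11, led by Zbp1 (3.16), Dhx58 (1.95) and Tlr3 (1.11). All 3 constitutive subunits Psmb5, Psmb6 and Psmb7 were higher, by 1.11, 0.97 and 0.71.

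Cell markers also differed between these livers, and their part in the result was not tested. Neutrophil markers summed to 646 to 1301 CPM in fetal and 0 to 2.96 in adult livers, erythroid markers to 2073 to 3348 and 17.6 to 242, and B cell markers to 25.8 to 65.2 and 0.543 to 10.6. Dendritic cell markers summed to 25.6 to 35.7 CPM in fetal and 13.7 to 24.1 in adult livers. Of 8 Kupffer cell or macrophage markers 2 were called higher and 5 lower in adult liver, with sums of 518 to 789 CPM in fetal and 394 to 1116 in adult livers. All 5 hepatocyte markers were called higher. Scaling to the library total moved the median of all genes to -0.61 and the share of higher calls among all calls from 47.4% to 25.5%; 24 members were then higher and 4 lower, with Psmb10, H2-DMa, Irf1, Usp18 and Ddx58 no longer called and Isg15 called lower (-0.68).

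Males and females of the adult stage were compared next. In adult liver no member was higher in males and 16 of 35 tested were lower: H2-D1, H2-T23, Tapbp, Psmb8, Psmb9, Psmb10, Irf7 and 9 of 11 effectors. Of 10372 genes tested, 3.01% were called higher and 6.48% lower in males, and the median log2 fold change (male/female) was -0.42 over the members and -0.0009 over all genes. All 35 tested members had a log2 value below 0 (Bst2 only barely, and above it under another scaling), as had 50.2% of all genes tested. None of the 5 class II genes tested was called; H2-DMa was too low to be tested.

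The largest differences were in the guanylate-binding proteins and Ifi44. Gbp3, a GTPase that attacks the membranes around intracellular pathogens, had a lowest, median and highest value of 8.57, 11.8 and 25.1 CPM in the 12 males and 24.2, 44.2 and 76.1 CPM in the 12 females. The ranges met at a single point, since only male 5 exceeded the lowest female (log2 -1.87 ± 0.16, adjusted p = 5.2e-10). Ifi44, an interferon-induced protein, had 2.11, 3.45 and 6.79 CPM in males against 9.75, 12.5 and 17.7 CPM in females (log2 -1.69 ± 0.16, adjusted p = 6.9e-10). It was the 1 member of 35 whose sexes did not overlap, beside 1.31% of all genes with males wholly below females. Gbp2, the neighbour of Gbp3 and a GTPase of the same family, had 4.89, 8.16 and 18.9 CPM in males and 14.9, 25.9 and 35.2 CPM in females (log2 -1.35 ± 0.18).

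The Ifit genes followed. Ifit3 had 7.82, 14.6 and 23.6 CPM in males and 18.7, 31.2 and 45.8 CPM in females (log2 -1.09 ± 0.16, adjusted p = 3.3e-06). Ifit1 was lower in males by 1.12 ± 0.24 on the log2 scale, and Ifit2 by 0.81 ± 0.14. Isg15 (-0.74), Usp18 (-0.74) and Oasl2 (-0.77), an oligoadenylate synthetase-like protein, were called lower in males with overlapping ranges. Rsad2 and Bst2 were the 2 effectors not called, at -0.29 and -0.01. Irf7 was lower in males (55.4 ± 12.5 CPM in females and 35.9 ± 9.70 in males, n = 12 each, log2 -0.67), whereas Irf1, Irf8, Irf9 and Stat2 were not called.

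**Figure D3:**
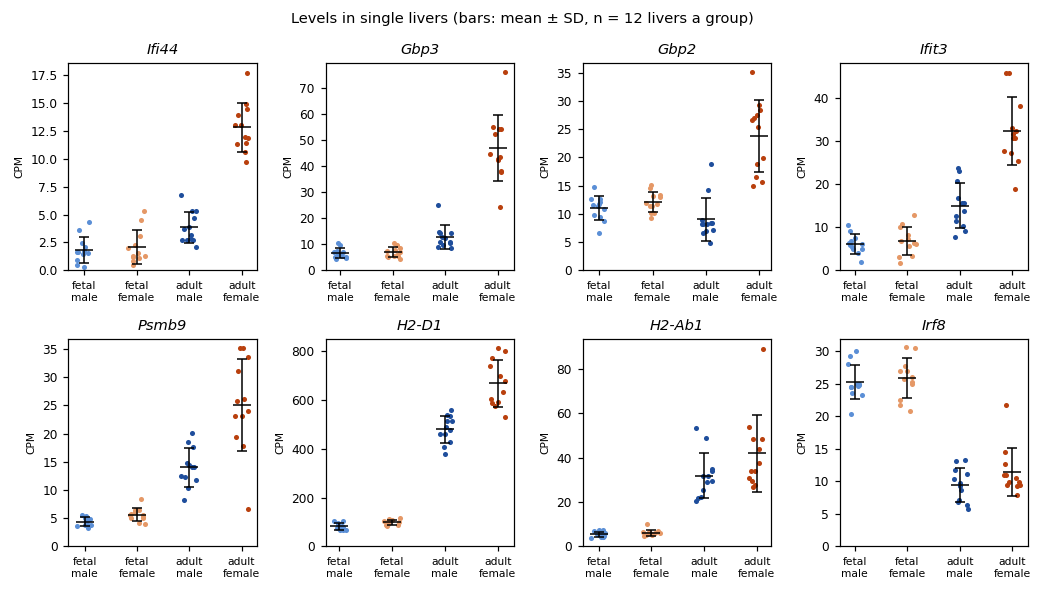
CPM of 8 members in each of the 24 fetal and 24 adult livers by sex, with the mean and SD of each group. In adult liver Ifi44 separates the sexes completely, Gbp3 all but male 5, and H2-Ab1 and Irf8 overlap widely.

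The class I side showed smaller but called differences. The immunoproteasome subunits Psmb8 (32.5 ± 7.72 CPM in males and 53.7 ± 13.7 in females), Psmb9 (14.05 ± 3.44 and 25.1 ± 8.25) and Psmb10 (36.6 ± 6.89 and 56.7 ± 10.8) were lower in males by 0.75, 0.84 and 0.66 on the log2 scale. Tapbp (-0.56 ± 0.062), H2-T23 (-0.60 ± 0.076) and H2-D1 (-0.50 ± 0.069) were lower too, the last just past the fold threshold. H2-K1 differed by -0.36 ± 0.057 and B2m by -0.13 ± 0.056, with adjusted p = 1.5e-05 and 0.099, so both missed only the fold threshold. Tap1 and Tap2 were not called, at -0.14 and -0.22, nor were the RNA sensors Ifih1 (-0.39, adjusted p = 5.7e-05) and Ddx58 (-0.48, adjusted p = 0.00018), which missed only the fold threshold.

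Class II genes overlapped widely between the sexes. Cd74 had 37.1, 71.5 and 107 CPM (lowest, median and highest) in males and 50.7, 75.3 and 174 CPM in females, a log2 value of -0.28 ± 0.17 with adjusted p = 0.24. H2-Ab1 had the lowest log2 value of the class, at -0.42 ± 0.19 with adjusted p = 0.11. The transactivator Ciita differed by -0.14 and was not called. Nlrc5, the transactivator of class I genes, was at -0.35 and missed only the fold threshold (adjusted p = 0.022).

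In the pathway lists, 14 of 26 other interferon-stimulated genes were lower in adult males and none was higher, led by the immunity-related GTPases Igtp (-1.32) and Tgtp1 (-1.31) and the RNA-activated synthetase Oas1a (-1.23). Of 17 further class I pathway genes 5 were lower, led by H2-Q1 (-1.88), H2-T10 (-0.96) and H2-T24 (-0.78), and of 6 further class II pathway genes 2 were lower, March1 (-0.85) and the lysosomal protease Ctss (-0.65). Of 13 signalling genes Socs3, a brake on cytokine signalling, was higher (1.01) and Ifngr1, a chain of the interferon gamma receptor, lower (-0.51), and of 9 sensors and adaptors Zbp1 was lower (-1.70). None of the 3 constitutive proteasome subunits was called.

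Macrophage markers moved the same way. Of 8 Kupffer cell or macrophage markers 5 (Emr1, Clec4f, Cd68, Vsig4 and Timd4) were called lower in adult males, and their sum was 394 to 695 CPM in males and 512 to 1116 in females. Sinusoidal endothelium markers had 1 of 5 called lower, with sums of 444 to 511 CPM in males and 492.9 to 626 in females. Erythroid markers summed to 191 to 242 CPM in males and 17.6 to 53.6 in females, with Alas2 called higher in males (2.79). B cell markers summed to at most 10.6 CPM and T and NK cell markers to at most 6.74 in either sex. Alignments that were not unique made up 42.2% to 61.1% in males and 32.7% to 43.2% in females. The part of these markers and alignments in the result was not tested.

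In fetal liver the same comparison called no member of 35 tested, while 3.81% of 12930 genes were called higher and 0.828% lower in males. At an unadjusted p under 0.05 there were 9 members, 25.7% of those tested beside 40.5% of all genes, and DESeq2 called 0. H2-K1 had the smallest adjusted p-value, with 89.7, 111 and 124 CPM in males and 121, 131 and 160.2 CPM in females (log2 -0.29 ± 0.052, adjusted p = 0.00012). With no fold threshold 7 of 35 members were lower in males (H2-K1, H2-D1, H2-T23, Tap2, Psmb8, Psmb9 and Psmb10), a share near the 19.5% of all genes. Of the effectors that differed most in adults, Gbp3 was at -0.09 ± 0.15 and Ifi44 at -0.16 ± 0.35. None of the 8 Kupffer cell or macrophage markers was called between the fetal sexes. The share of counted reads outside genes was 39.9% to 49.0% in fetal males and 34.1% to 38.1% in fetal females, and with that share as a covariate the members' median moved from -0.14 to 0.022 with no member called.

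The difference between the stages was tested itself, as the interaction of stage and sex over the 48 livers. In 9 of 36 members the male to female log2 fold change was lower in adult than in fetal liver and in none was it higher, beside 8.53% and 5.19% of 13026 genes. They were Gbp3 (-1.74 ± 0.23, adjusted p = 7.1e-08), Ifi44 (-1.50 ± 0.40), Gbp2 (-1.18 ± 0.20), Ifit3 (-0.90 ± 0.31), Ifit1 (-0.84 ± 0.38), Oasl2 (-0.74 ± 0.28), Ifit2 (-0.66 ± 0.20), Irf7 (-0.65 ± 0.27) and Tapbp (-0.55 ± 0.082). For Psmb8, Psmb9 and Psmb10, called lower in adult males, the interaction was -0.38 ± 0.15, -0.43 ± 0.22 and -0.33 ± 0.12 and was not called. Psmb8 and Psmb10 missed only the fold threshold (adjusted p = 0.057 and 0.044). With libraries of at least 2000000 reads Psmb8 was called (-0.55). H2-T23, Ifih1 and Ddx58 also missed only the fold threshold, at -0.39, -0.38 and -0.42. For H2-K1 the interaction was -0.02 ± 0.079. Of 8 Kupffer cell or macrophage markers, Cd68, Vsig4 and Timd4 were called lower in the same test. Emr1, Clec4f, Csf1r, Marco and Cd5l were not called. Among markers of other cells, Clec9a (dendritic cell, -0.83), Lyve1 (sinusoidal endothelium, -0.60) and Klrb1c (T and NK cell, -1.19) were called lower and Alas2 (erythroid, 2.99) higher. The part of these markers in the result was not tested. Among 30 other interferon-stimulated genes 16 were lower and 0 higher, led by Oas3 (-2.14), Oas2 (-1.46) and Tgtp1 (-1.21).

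The RNA of each inducible proteasome subunit was set against that of its constitutive counterpart as a read ratio within a library. Such a ratio needs no scaling between libraries. Reads were not divided by gene length and no protein was measured, so the ratios do not give the make-up of the proteasome. The ratio of reads on Psmb8 to reads on Psmb5 was 0.251 to 0.470 (median 0.333) in fetal livers, 0.304 to 0.615 (median 0.432) in adult males and 0.665 to 1.25 (median 0.913) in adult females. The adult sexes did not overlap. Psmb5 itself had medians of 75.7 CPM in adult males and 53.9 in adult females (log2 0.32 ± 0.099, adjusted p = 0.016), which missed only the fold threshold, and in the interaction of stage and sex it was called higher (0.69 ± 0.11, adjusted p = 6.7e-06). The Psmb10 to Psmb7 ratio was 0.152 to 0.366 in fetal livers, 0.136 to 0.248 in adult males and 0.246 to 0.453 in adult females. The Psmb9 to Psmb6 ratio was 0.0407 to 0.0929 in fetal livers, 0.0556 to 0.140 in adult males and 0.0479 to 0.231 in adult females, where female 22 was lowest with 17 reads on Psmb9. In ES lines and embryos the constitutive subunits were read almost alone: Psmb8 over Psmb5 was at most 0.0019 in ES lines and 0 in all 12 embryos, and Psmb10 over Psmb7 was 0.0158 to 0.0523 in ES lines and 0.0101 to 0.0667 in embryos.

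**Figure D4:**
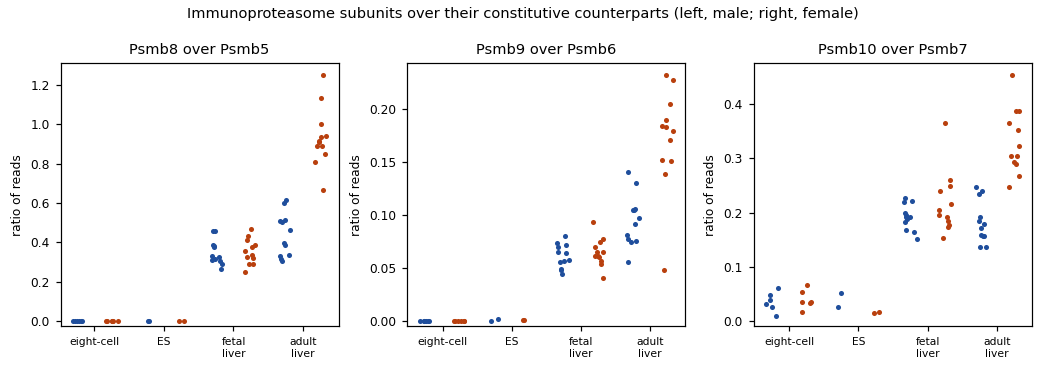
Ratio of reads on each inducible proteasome subunit to its constitutive counterpart, 1 point per library, by stage and sex. Psmb8 over Psmb5 separates adult females (0.665 to 1.25) from adult males (0.304 to 0.615), and embryos lie at 0 for Psmb8 and Psmb9.

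Livers of one stage and sex differed from each other as well, and here the effectors of fetal liver moved together. Deviations of log2 CPM from the mean of the same sex were correlated over the 24 livers of a stage, as a description. Over the 55 pairs of the 11 effectors the median Pearson r was 0.69 in fetal livers (0.38 to 0.89, median Spearman rho 0.68), with 49 pairs over 0.5. The closest pair was Ifit1 with Ifit3 (r = 0.89), then Isg15 with Rsad2 (0.88). In adult livers the median was 0.32 (-0.34 to 0.84), with 16 pairs over 0.5. Adult libraries held fewer reads on genes (1567583 to 4757610, against 5145371 to 8499603 in fetal livers). The part of this in the correlations was not tested. All points share the libraries and their scaling.

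Certain fetal livers stood high or low across the effectors. Male 2, female 16 and female 15 stood 0.87, 0.82 and 0.56 above their sex mean on average, and female 24 and male 12 stood 0.85 and 0.73 below it (log2 scale). Isg15 was 28.0 CPM in fetal male 2, 21.7 in female 16 and 14.98 in female 15, against a median of 7.79 and 2.77 in female 24. Rsad2 was 327, 242 and 201 CPM in the same 3 livers, and Irf7 was 28.2, 29.0 and 21.2 CPM against a median of 13.4. H2-K1 was 116, 135 and 130.5 CPM there, within the range of the other fetal livers. Without those 3 livers the median r was 0.55, with 35 pairs over 0.5. The mean deviation of the effectors had r = -0.047 with Kupffer cell markers and 0.23 with the depth of the library (n = 24). With T and NK cell markers r was 0.34 (0.18 without the 2 farthest livers), with B cell markers 0.15 and with dendritic cell markers -0.088.

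Class II genes had their higher correlations in adult livers. The median r over 15 pairs was 0.67 in adult livers, with 12 pairs over 0.5, and 0.16 in fetal livers. Class II levels were lower in fetal livers (median log2 of 2.95 for adult over fetal), and the part of this in the correlations was not tested. Adult female 18 stood 1.15 and male 5 0.75 above the sex mean on the log2 scale. Cd74 was 174 CPM in female 18 and 107 in male 5, and H2-Aa was 102 and 68.6 CPM. Without these livers the median r was 0.53, with 9 pairs over 0.5. The class II deviation had r = 0.62 with dendritic cell markers, 0.58 with B cell markers, 0.60 with T and NK cell markers and 0.43 with Kupffer cell markers, though the first 3 sums were low, at most 24.1, 10.6 and 6.74 CPM. Without the 2 farthest livers these r values were 0.49, 0.65, 0.65 and 0.50. The class I deviation had r = 0.75 with Kupffer cell markers and that of the loading and immunoproteasome genes 0.66 (Spearman rho 0.75 and 0.64, r = 0.67 and 0.60 without the 2 farthest livers), and that of the effectors 0.46. With the depth of the adult libraries, r was 0.30 for class II, 0.40 for class I, 0.41 for loading and immunoproteasome genes and 0.061 for effectors. Class I members on Kupffer cell markers in fetal livers gave r = 0.38. Loading and immunoproteasome genes in fetal livers gave r = 0.60 with T and NK cell markers (Spearman rho 0.62, r = 0.48 without the 2 farthest livers). Their r was 0.25 with B cell, 0.22 with Kupffer cell and 0.0079 with dendritic cell markers.

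**Figure D5:**
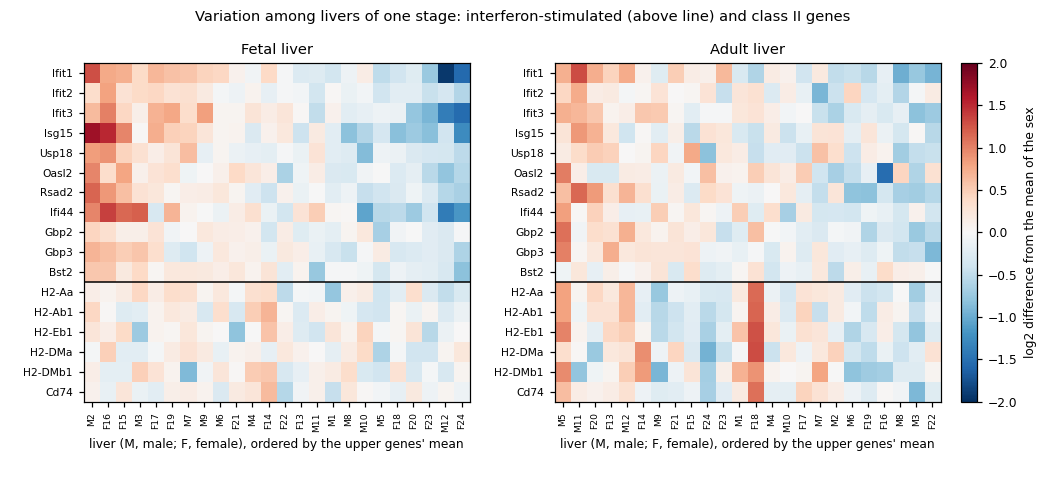
Deviation of log2 CPM from the mean of the same sex for the interferon-stimulated effectors and the class II genes (rows) in each fetal and each adult liver (columns). Fetal male 2, female 16 and female 15 are high for nearly all effectors, and adult female 18 and male 5 for the class II genes.

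ES cells in 2i medium carried most of the set at far lower levels than fetal liver, made with the same kit. Of 36 members 32 were lower and 1, H2-Eb1, was higher, with Irf1, Ddx58 and H2-DMb1 not called. Of 14858 genes tested 40.9% were called lower and 35.5% higher. The median log2 fold change was -4.53 over the members, also with the 4 unread genes set at their bound, and -0.068 over all genes.

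Class I chains were low but read in every line. B2m was 7.23, 8.34, 7.75 and 7.72 CPM in male 1, male 2, female 3 and female 4, against a fetal mean of 237 (log2 -4.95 ± 0.083, adjusted p = 4.2e-31). H2-K1 was 9.72, 4.35, 3.33 and 3.38 CPM (log2 -4.55 ± 0.19). Psmb8 had 2, 1, 1 and 0 reads in the same lines, whereas the constitutive Psmb5, Psmb6 and Psmb7 were higher than in fetal liver by 1.18, 1.17 and 0.51. Tapbp, at 36.4, 23.9, 22.002 and 15.3 CPM, was lower by 0.96 only.

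Among the effectors Isg15, Usp18, Ifit3 and Ifi44 had no read in any ES line. With 3 reads over the 4 lines as the floor, 0.0565 CPM, they were at least 159.6-, 200.03-, 114- and 34.8-fold lower than in fetal liver. Ifit1 had 2 reads in male 1 and none elsewhere. Rsad2 was still read at 1.83, 1.38, 1.86 and 1.73 CPM, and Bst2 at 22.6, 11.7, 4.80 and 4.17 CPM. The call of Bst2 (-0.52 ± 0.28, adjusted p = 0.083) was lost without male 2, female 3 or female 4.

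Some factors at the head of the response were read nonetheless, though most listed genes around them were lower than in fetal liver. Of 15 receptor and signalling genes tested 12 were lower and 1 higher, and of 12 sensors and adaptors 7 were lower and 2 higher. Among all genes these shares were 40.9% and 35.5%. Stat2 was 28.4, 28.4, 18.6 and 19.8 CPM, lower by 0.64 than in fetal liver, and Irf9 21.8 to 27.3 CPM, lower by 1.10. Irf1 was 70.4, 45.1, 33.3 and 27.2 CPM and Ddx58 90.8, 54.3, 51.4 and 45.8 CPM, beside fetal means of 37.9 and 46.3 CPM (log2 0.19 ± 0.13 and 0.35 ± 0.11, neither called). Irf7 had at most 1 read in a line and Ifih1, the partner sensor of Ddx58, 3 reads in male 1 and none in the others. Male 1 was highest of the 4 lines for Irf1, Ddx58, Bst2, Tapbp, Psmb10 and H2-K1. With 2 lines per sex, no test of sex was made here.

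H2-Eb1 stood apart from its class. It was 5.48, 16.3, 70.7 and 65.3 CPM in male 1, male 2, female 3 and female 4, and 1.43 to 4.71 CPM (median 3.06) in fetal livers (log2 3.51 ± 0.26, adjusted p = 1.3e-13). All 4 lines lay above all 24 fetal livers, and both female lines above both male lines. H2-Aa, which encodes the alpha chain of the other class II molecule, had 1, 0, 3 and 0 reads in the same lines, H2-Ab1 0, 2, 6 and 2 reads and Cd74 6, 5, 4 and 6 reads. Of the 8 Kupffer cell or macrophage markers, Emr1, Clec4f, Vsig4, Marco and Cd5l had no read in any line, Timd4 had 1 and Csf1r 9 over the 4 lines, and Cd68 was 9.76 to 25.9 CPM, beside 10.1 to 15.5 in fetal livers.

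Eight-cell embryos held a narrow subset, described without a test. Oasl2 was read in all 12 embryos at 10.3 to 92.8 CPM (median 62.2), Stat2 at 3.86 to 65.3 (median 41.7) and Irf9 at 4.51 to 54.3 (median 37.5). B2m ranged from 13.6 to 62.2 CPM (median 35.2), H2-D1 from 4.70 to 45.1 (median 15.9), H2-K1 from 0.499 to 100.3 (median 19.1) and Psmb10 from 5.82 to 32.5 (median 19.01). Ciita was read in all 12, at 1.496 to 25.8 CPM (median 8.95), although the class II genes H2-Aa, H2-Ab1 and H2-Eb1 had reads in 0, 2 and 1 of 12 embryos. Exons of Ciita overlap those of Dexi.

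Of the other 28 members 12 had no read in any embryo, 11 had reads in 1 to 5 embryos, and 5 in 8 to 12 (H2-T23 in 12, Tapbp in 11, H2-DMa and Bst2 in 9 each and Ddx58 in 8). Exons of H2-DMa overlap those of Brd2, and exons of Tapbp those of Zbtb22. Isg15 had 31 reads in female 7 and none in the other 11, Tap2 had 21 reads in female 8 and none elsewhere, and Cd74 had 21 reads in male 1 with fewer than 3 in any other. Male 6 had 20 reads on H2-Ab1, 20 on Irf7 and 26 on Irf8.

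The interferon genes themselves were hardly read. Of 9 on the list, Ifna1, Ifna2, Ifna4, Ifnb1, Ifne, Il28a and Il28b had no read in any of 64 libraries. Reads mapping to several places were not counted, so these zeros cover uniquely mapped reads only. Ifng had 12 reads in all over the 24 fetal livers and 3 over the 24 adult livers, with at most 2 in a library, and Ifnk had 1 read in the embryos and 2 in the fetal livers.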

How the data were processed

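The authors deposited raw counts, the number of reads per gene and library, for the 64 libraries. Per the labels and the methods of the study, reads were aligned to mm10 with TopHat2 2.0.4 and Bowtie2 2.1.0, duplicates were removed with Picard (SAMtools 0.1.18), and HTSeq counted reads per gene with no normalization. Its strand setting is not given in the sources used here, so reads of genes with overlapping exons are uncertain. Among them are Tap1 and Psmb9, Ciita and Dexi, H2-DMa and Brd2, Irf9 and Rnf31, Irf7 and Phrf1, and Tapbp and Zbtb22. Also uncertain are near-identical class I genes, H2-DMb1 and H2-DMb2, and Gbp2 and its paralogs, since reads mapping to several places were not counted. The sex of embryos was set by the authors from expression, that of ES lines and fetuses by PCR. Libraries were sequenced 12 to a lane, and lanes are not named. Rows that name no gene were left out of library sizes.

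Samples were grouped by their labels for stage and sex. All genes were fitted in R 4.3.3 with edgeR 4.0.16 (TMM, filterByExpr, robust quasi-likelihood fit, two-sided F test), with sex as a covariate between stages and male against female within a stage as in the study. Calls needed p below 0.1 after Benjamini-Hochberg adjustment together with a log2 value past 0.5 in size, the thresholds of the study. The standard error is the absolute log2 over the square root of F. CPM are counts scaled with TMM factors (1 scaling for ES lines and livers and 1 for embryos), and log2 CPM used a pseudocount of 0.5. Descriptions used Python 3.11.15 with numpy 2.4.6, pandas 2.3.3 and scipy 1.17.1. DESeq2 1.42.0 was an alternative, as were other scalings, no filter, no fold threshold, libraries with at least 2000000 reads, a covariate and left-out libraries. Of the fits, only that of adult males against females was tried on simulated data.

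All 36 members may be named, and of each pathway list up to 3 called genes with the largest log2. Other named genes were chosen after their values were seen. The members, gene lists and marker lists were chosen with earlier results of these data known. The analyses without livers that stood apart and the correlations in fetal livers were chosen after seeing the data. Nothing states that fetuses or adults of a group came from separate litters, so p-values measure the spread between these samples. Floors cover counting error only.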

Additional observations from a re-analysis of the deposited data

Results flagged for a closer look

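In 9 members the male to female log2 fold change differed between adult and fetal liver by the interaction test: Gbp3 (-1.74), Ifi44 (-1.50), Gbp2 (-1.18), Ifit3 (-0.90), Ifit1 (-0.84), Oasl2 (-0.74), Ifit2 (-0.66), Irf7 (-0.65) and Tapbp (-0.55), each as the adult minus the fetal value. The interaction was called in 8.53% of all genes tested in that direction. Gbp2 and Gbp3, and the 3 Ifit genes, are neighbours on their chromosomes.

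A single embryo stood apart from the others of its sex in 2 of 25 groups tested, where chance gives about 1 in 20. H2-T23 was 3.27 CPM in male embryo 5 and 1.35 to 1.81 CPM in the other male embryos, and H2-K1 was 100.3 CPM in female embryo 10 and 15.1 to 40.5 CPM in the other female embryos.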

How the results depend on the processing

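The counts of members called in adult over fetal liver (24 to 32 higher and 2 to 4 lower), in adult males over females (15 to 21 lower, 0 higher) and in the interaction (7 to 12 lower, 0 higher) stayed within 1.5 times the main counts under all alternatives run for them, and no single member changed sign with a call. H2-D1 was no longer called lower in adult males under 5 alternatives, at -0.48 to -0.49. With no fold threshold, 7 members were lower in fetal males. Between ES lines and fetal liver, 2 members were higher when scaled to the library total, with Ddx58 beside H2-Eb1, and also 2 with no fold threshold. Leaving out 1 ES line at a time gave 1 to 2 higher, where the 2 arose without female 4, with H2-DMb1 as the added gene, and 31 to 32 lower. The median r of the effectors among fetal livers was 0.55 without livers 2, 15 and 16.

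Fetal and adult livers share numbers in their titles, but 24 such pairs had correlations of deviations between -0.093 and 0.046 with a median of -0.0063. No pairing by number was seen in expression. These correlations cannot show whether samples of one number shared a litter or lane. With the number as a replicate block, 29 members were higher and 3 lower in adult liver. The interaction was not run with library-total scaling. In the shallowest adult livers 3 reads stand for 1.91 CPM, which limits H2-DMa, Ciita and H2-DMb1.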
